A study of Mus musculus with 4 samples.

Results

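The HoxC cluster is the row of 9 homeobox genes Hoxc13, Hoxc12, Hoxc11, Hoxc10, Hoxc9, Hoxc8, Hoxc6, Hoxc5 and Hoxc4 on mouse chromosome 15, taken here as 135 kb of the mm9 genome with a flank of 100 kb on each side. Its members were the CG sites with 5 or more reads in each of the 4 libraries, 1774 of the 2748 CG sites listed in the cluster and of 2638319 such sites in all. In windows of 200 bp that held at least 3 such sites, 189 of 316993 windows belonged to the cluster. The assay was TGBS, targeted bisulfite sequencing: captured DNA is treated with bisulfite, which converts unmethylated cytosines, and a site's methylation level is the share of its reads that kept the cytosine. All mice were wild-type males of the C57BL/6 background and 11 to 12 weeks old. The 2 swim-up sperm libraries came from sperm that had swum into the upper medium. The 2 HRCS libraries came from histone replacement-completed sperm, the dense heads pelleted through Percoll after mild sonication of the total sperm released from cauda epididymis and vas deferens. By the study's staining assay, a small part of swim-up sperm and almost none of HRCS had not completed this replacement. Most cells of both fractions had thus completed it, so the comparison is not one of complete with incomplete sperm. The labels word the tissues and the treatment the same for all 4 samples. The sources used here do not say how many mice went into a library or whether the replicates are separate animals, so p-values measure only the spread between these libraries, which may be technical.

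Hox genes encode transcription factors with a DNA-binding homeodomain, and their order along the chromosome follows the order in which they are used from head to tail in the embryo. The clusters are rich in CG sites and stay silent in sperm, and in mammals they are textbook targets of Polycomb repression, which is usually found on unmethylated CG-rich DNA. In sperm most histones are replaced by protamines. CG-rich promoters of developmental genes are among the places reported to keep some histones, but published maps disagree on this. The tissue labels were checked on promoters of defining genes, taken as the 300 bases from 250 before to 50 after the start. Promoters of the maternally imprinted Mest, Peg3, Peg10, Plagl1 and Kcnq1ot1, which sperm leaves unmethylated, had mean levels from 1.08% to 1.82%. Snrpn, also on that list, had no measured promoter. The germline promoters of Dazl, Ddx4, Sycp1, Sycp3 and Mael lay between 0.523% and 1.73%. All promoters means, here and below, the 14398 of 25983 that had 6 or more CG sites, could be placed and had enough kept sites. CG-poorer promoters were left out. Over all promoters the median was 1.11% and 96.7% were at or below 25%, so these low levels do not set sperm apart. The H19 promoter, which had been listed as a methylated control, was at 0.294% over 5 sites. The control region that carries the paternal imprint lies upstream of that promoter and was not part of the window read here. The check therefore held no methylated control.

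The genes were placed on mm9 through the CG sites themselves. The reference annotation is of build GRCm38.p6, so the spacing of all 2496 CG sites from the Hoxc13 promoter to the end of Hoxc4 was searched in the listed mm9 sites, and it matched exactly 1 place, 102751312 to 102867283 on chromosome 15. All 9 genes are on the plus strand and start, in this order, at 102751562 for Hoxc13, 102767257 for Hoxc12, 102784957 for Hoxc11, 102797227 for Hoxc10, 102807463 for Hoxc9, 102820970 for Hoxc8, 102839993 for Hoxc6, 102844439 for Hoxc5 and 102864826 for Hoxc4. Hotair, a long noncoding RNA transcribed in the opposite direction, lies between Hoxc12 and Hoxc11 from 102774493 to 102778377. Starts are those of curated RefSeq transcripts, and Hoxc6 and Hoxc4 also have predicted transcripts that begin farther upstream.

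The cluster as a whole was methylated at a low level in every library. Its mean site level was 7.88% and 7.56% in the swim-up sperm libraries against 7.88% and 7.57% in HRCS. The fractions overlapped and differed by 0.0030 percentage points, from 7.72% ± 0.222 (SD, n = 2) in swim-up sperm to 7.72% ± 0.221 (SD, n = 2) in HRCS, and a two-sided exact permutation test gave p = 0.67. With 2 libraries against 2 this test cannot give a p below 0.33. The mean hides a split between sites, since 1505 of the 1774 sites were at or below 5% and 82 were above 75% in the mean of the 4 libraries. The kept sites had a median of 23 to 28 reads in the 4 libraries. No methylated read was seen at 512 sites in any library. A site of this kind had a median of 91 reads over the 4 libraries, which allows a level of up to 3.30%. Reads from the same PCR product or spanning several CG sites are not independent, so this limit and the intervals given further on cover counting error only.

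**Figure D1:**
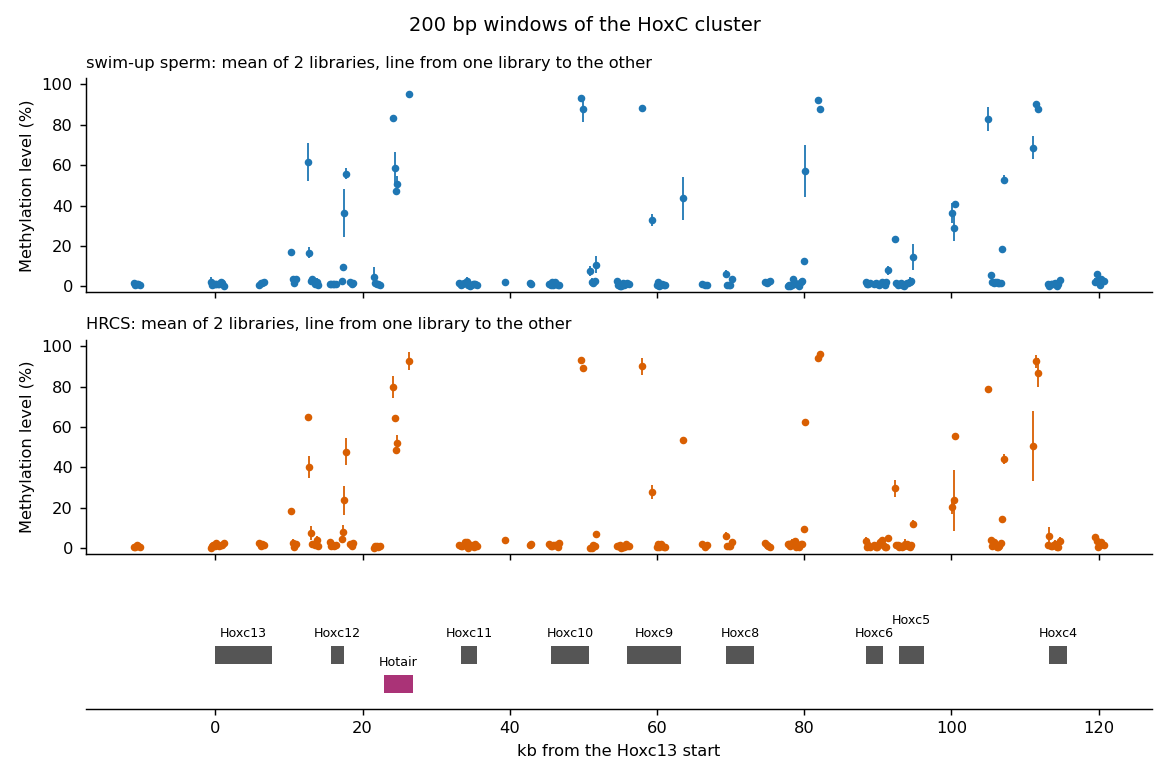
Methylation level in percent of the 189 windows of 200 bp in the HoxC cluster against kb from the Hoxc13 start, for swim-up sperm (top) and HRCS (middle), with the genes drawn below. Points are means of 2 libraries and vertical lines run between the libraries. In both fractions most windows lie near 0 and the same places, among them Hotair, the end of Hoxc10 and the gap between Hoxc8 and Hoxc6, stand up to 80% or more.

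The flanks differed from the cluster. In the downstream flank, 332 of 965 listed sites were kept, with mean levels of 31.0% and 30.7% in swim-up sperm against 30.9% and 30.4% in HRCS. The upstream flank held 739 listed sites, but just 2 of them had enough reads, at 100% and 96.4% in swim-up sperm against 91.7% and 95.5% in HRCS. The cluster minus both flanks was -23.56 and -23.49 points in the swim-up libraries and -23.38 and -23.20 points in HRCS, a mean of -23.41 ± 0.156 points (SD, n = 4). The size depended on the flank and the depth: it was -14.00 with flanks of 50 kb, -12.92 with flanks of 200 kb and -10.63 at a minimum of 20 reads. All 4 libraries showed this direction, and the two-sided exact sign-flip test gave p = 0.13, the smallest p that 4 libraries allow. Where the capture probes lie was not checked, and the kept sites are just those with enough reads. Calls (1 call is 1 read at 1 CG site) were few in the upstream flank, 176 to 252 per library against 46362 to 57668 in the cluster. With all of those calls pooled, whatever the depth of the site, the upstream flank stood at 95.6% and 89.7% in swim-up sperm against 91.8% and 94.9% in HRCS, while the cluster stood at 6.90% and 7.25% in swim-up sperm against 6.42% and 6.67% in HRCS. By this measure the fractions of the cluster did not overlap (exact permutation test, two-sided, p = 0.33), unlike by the mean over kept sites. The downstream flank did not overlap by it either, at 27.1% and 28.7% in swim-up sperm against 23.5% and 26.4% in HRCS, a difference of -2.97 points against -0.531 in the cluster. In bins of 5 kb, none of the 20 upstream bins was at or below 25%, against 21 of the 27 bins of the cluster and 4 of the 20 downstream bins. Both edges are set coordinates, not borders found in the data, and the one on the Hoxc13 side lies 11.6 kb before the Hoxc13 start. The last upstream bin was at 100% over 21 calls, and the first bin of the cluster at 1.33% over 4879 calls. Kept windows of this first bin lay between 102740401 and 102741400 only. The next bin, still upstream of Hoxc13, read 69.0% and 60.0% in swim-up sperm against 25.9% and 36.6% in HRCS on 27 to 60 calls a library. This bin is given for its place near the edge, its values were known when it was described, and its difference was not tested. On the Hoxc4 side the last bin of the cluster was at 7.15% over 4249 calls, and the first bin beyond it at 100% over 13 calls.

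The Hoxc promoters were low in both fractions, with levels of 7.77% or lower in every library. At Hoxc13, a gene needed for hair and nails, the promoter level was 0.595% and 2.17% in swim-up sperm against 1.45% and 0.625% in HRCS over 10 sites. At Hoxc12 it was 1.83% and 1.05% in swim-up sperm against 2.59% and 2.38% in HRCS over 13 sites. Both HRCS libraries lay above both swim-up libraries at Hoxc12, by 1.04 points in the means, while they overlapped at Hoxc13. The Hoxc12 levels rested on few methylated calls, 5 of 254 and 3 of 304 in swim-up sperm against 7 of 294 and 4 of 175 in HRCS. With 500 bp on each side of the start the mean of the 4 libraries at Hoxc12 was 1.26% in place of 1.96%. Hoxc11, which acts in the hindlimb and lower spine, had the most CG sites, 21, and the most reads, 823 to 1346 calls a library. Its promoter was at 0.927% and 0.873% in swim-up sperm against 1.52% and 0.978% in HRCS. Hoxc10, which also acts in the lower spine and hindlimb, was at 1.12% and 3.22% in swim-up sperm against 0.680% and 1.27% in HRCS. At Hoxc9, a thoracic patterning gene, the 4 libraries lay within 1.24% to 1.57%.

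The promoters of the genes used farther toward the head were as low, apart from Hoxc8 at the minimum of 5 reads. Hoxc6, whose promoter has 5 CG sites and was placed only within the match of the whole cluster, was at 2.21% and 1.21% in swim-up sperm against 0.800% and 4.81% in HRCS. At Hoxc5 the levels were 1.28% and 0 in swim-up sperm against 0.840% and 1.68% in HRCS, and the count of 0 allows up to 1.61%. At Hoxc4, a gene of the neck region, they were 0.715% and 0.966% in swim-up sperm against 1.68% and 1.70% in HRCS, so the fractions did not overlap. The methylated calls at Hoxc4 were 3 of 343 and 2 of 291 in swim-up sperm against 8 of 420 and 5 of 286 in HRCS. Hoxc8 had the highest promoter at that minimum, at 4.004% and 7.74% in swim-up sperm against 7.77% and 4.33% in HRCS. Its mean of 5.96% rested on 2 sites with 5 reads in each HRCS library, and it was 2.33% with 500 bp on each side of the start, 0.643% at a minimum of 10 reads and 0.616% at 20, at both of these minimums the lowest of the Hoxc promoters with a value. The mean over the 8 promoters that could be placed on their own CG pattern was 1.83% ± 0.477 (SD, n = 2) in swim-up sperm against 2.02% ± 0.287 (SD, n = 2) in HRCS (exact permutation test, two-sided, p = 0.67).

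Between the fractions edgeR's quasi-likelihood test, adjusted by Benjamini-Hochberg over 14398 promoters, called none of the 8, and the smallest of their p-values was 0.069 before adjustment, at Hoxc8 (adjusted p = 1). The test called 0.00695% of all promoters. At an unadjusted p below 0.05 there were 0 of the 8, against 4.54% of all promoters, and limma called 0 of the 8 and 0.00% of all promoters. Fisher's exact test on pooled calls, which ignores the spread between libraries, also called 0 of the 8, beside 0.236% of all promoters. The fractions did not overlap at 3 of the 8, Hoxc12, Hoxc11 and Hoxc4, each higher in HRCS, beside 33.0% of all promoters. The share of unmethylated cytosines left unconverted was not measured here, and its part in these low levels was not tested.

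**Figure D2:**
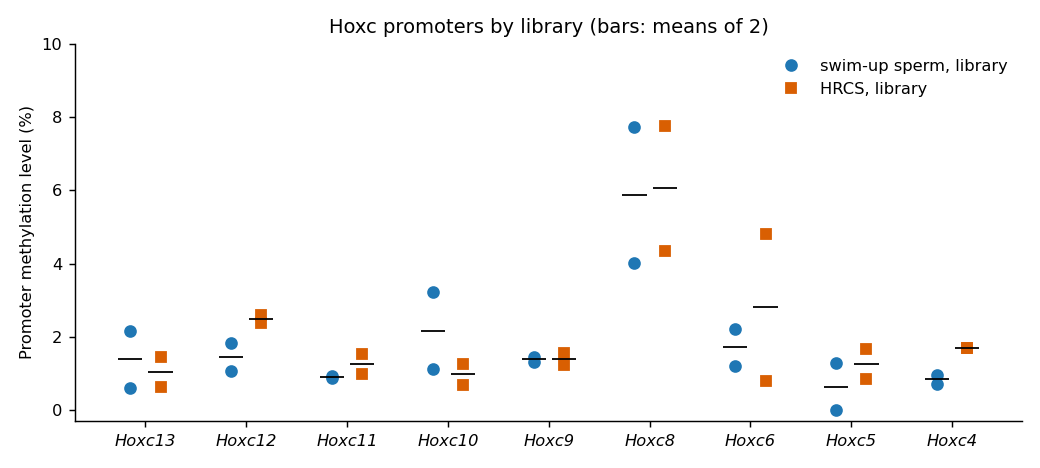
Promoter methylation level in percent of the 9 Hoxc genes, in the order of the chromosome, with a circle for each swim-up sperm library, a square for each HRCS library and a bar for each mean of 2. All values lie below 8%, Hoxc8 stands above the others in the means of both fractions at the minimum of 5 reads used here (at 10 reads it is the lowest, 0.643%), and at Hoxc8 the libraries of a fraction lie farther apart than the means of the fractions.

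The Hoxc8 promoter was split within itself. Its 14 CG sites nearest to the start, from 69 bp before it onward, held 0.304% to 1.03% methylated calls in each library. The other 6 sites, 104 to 84 bp before the start and spaced by 4 bp, held 22 of 71 and 74 of 124 methylated calls in swim-up sperm and 14 of 26 and 9 of 30 in HRCS. The site 96 bp before the start had no methylated read among 32 reads in swim-up sperm or 9 in HRCS, while its neighbours 4 bp away on either side were at 68.8% and 67.6% in swim-up sperm. A site 88 bp before the start was at 61.8% of 34 reads in swim-up sperm and 60.0% of 10 in HRCS. Among these 6 sites, 2 passed the minimum of 5 reads in every library, so the promoter level given above contains those 2 and leaves out the other 4. These sites were singled out after their values had been seen.

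Within the genes, exons near the start were unmethylated and the methylated sites lay deeper or outside. The 61 sites in 5' UTRs of the 9 genes averaged 0.790% to 1.56% in the 4 libraries, the 532 coding sites 2.82% to 3.23%, the 241 intron sites 9.03% to 9.95% and the 61 sites in 3' UTRs 5.24% to 6.68%. Between the genes, 850 sites averaged 8.44% to 8.91%. No 5' UTR site was above 50%, against 10 coding and 20 intron sites. Distance gave the same picture: sites within 250 bp of a Hoxc start were at 1.39% and 1.49% in swim-up sperm against 1.66% and 1.94% in HRCS, whereas those more than 4 kb away were at 12.6% and 12.02% in swim-up sperm against 12.3% and 12.1% in HRCS. Within 1 kb of a start, 2 of 656 sites exceeded 50%, and beyond 4 kb 70 of 660 did.

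Hoxc10 stood apart among the coding sequences. The second coding exon of a Hox gene holds the homeobox, and it was measured in 7 of the 9 genes. In Hoxc13, Hoxc12, Hoxc11, Hoxc6, Hoxc5 and Hoxc4 its mean over the 4 libraries was between 1.04% and 4.21%. In Hoxc10, at 102801229 to 102801506, the 10 sites were at 94.0% and 87.6% in swim-up sperm against 91.3% and 92.2% in HRCS. The 10 sites lay between 83.0% and 98.9% in the mean of the 4 libraries. The first coding exon of the same gene, over 44 sites, was at 1.26%, and the gene as a whole averaged 20.2% and 19.9% in swim-up sperm against 19.7% and 20.7% in HRCS. The second coding exons of Hoxc9 and Hoxc8 had no site with enough reads. The contrast between Hoxc10 and the other genes was seen in the values first and carries no test.

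Hoxc9 and Hotair were methylated in their introns or exons while the promoters around them were not. In Hoxc9 the 24 sites of its 5' UTR and the 69 coding sites were at or below 1.39% in every library, but the 57 intron sites were at 26.4% and 25.8% in swim-up sperm against 26.0% and 25.7% in HRCS. The intron window at 102809401, 2.0 kb after the start, held 9 sites and averaged 88.5% ± 0.400 (SD, n = 2) in swim-up sperm against 90.0% ± 5.89 (SD, n = 2) in HRCS. Hotair, which has been described as a guide of chromatin repressors to other Hox genes, averaged 68.0% and 67.5% in swim-up sperm against 68.6% and 68.8% in HRCS over 29 sites. Its level was uneven. Windows in its last exon ran from 81.7% at 102775601 to 48.0% at 102776001, the mean of the 4 libraries, and near its start the window at 102777801 reached 93.8%. No CG site in the 300 bases around the Hotair start had enough reads.

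The 2 microRNA genes of the cluster were read very unequally. Mir615 lies in the Hoxc5 intron, and its mature products, whose CG sites could be read, are shown 5' to 3' from RefSeq (GRCm38.p6, plus strand) with the seed, bases 2 to 8, in capitals.
miR-615-5p: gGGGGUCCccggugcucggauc
miR-615-3p: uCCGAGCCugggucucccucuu
The hairpin holds 7 CG sites in mm9, 2 of them within miR-615-5p and 1 within the seed of miR-615-3p. Their mean level was 3.28% and 0.893% in swim-up sperm against 1.30% and 0 in HRCS on 9 to 22 reads a site. The site inside the miR-615-3p seed was methylated in 4.76% of 21 reads and 0 of 12 in swim-up sperm and in 9.09% of 11 reads and 0 of 21 in HRCS. Each of the values above 0 rests on 1 read. Mir196a-2, between Hoxc10 and Hoxc9, has a single CG in its hairpin and no kept site in its promoter.

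From start to start, methylation at the kept sites was gathered in 5 of the 10 stretches. The stretch from the Hoxc11 start to the Hoxc10 start averaged 1.30% to 1.92% in the 4 libraries over 169 sites, with none above 50%. The stretches from Hoxc12 to Hoxc11, from Hoxc10 to Hoxc9, from Hoxc9 to Hoxc8, from Hoxc8 to Hoxc6 and from Hoxc5 to Hoxc4 averaged 9.85% to 11.75%, with 8.63% to 10.5% of their sites above 50%. The other 4 stretches, before Hoxc13, from Hoxc13 to Hoxc12, from Hoxc6 to Hoxc5 and from the Hoxc4 start on, averaged 1.89%, 4.42%, 2.16% and 3.22%. Before Hoxc13 just 69 of 188 listed sites were kept. With all sites pooled, the 5 kb bin from 102745001 in that stretch was at 52.7% over 186 calls, so its low mean covers the kept sites only. The fractions did not overlap from the Hoxc13 start to the Hoxc12 start, at 4.28% and 3.86% in swim-up sperm against 4.62% and 4.94% in HRCS, or before Hoxc13, at 1.86% and 2.20% in swim-up sperm against 1.81% and 1.70% in HRCS. Of all windows 32.7% did not overlap either.

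Of the 189 windows, 163 were at or below 25% in the mean of the 4 libraries and 10 were above 75%. By library the share at or below 25% was 87.8% and 87.8% in swim-up sperm against 86.8% and 88.4% in HRCS, a mean of 87.7% ± 0.666 (SD, n = 4), beside 50.8% to 51.2% of all windows. In the 39 windows of the downstream flank it was 64.1% and 64.1% in swim-up sperm against 61.5% and 66.7% in HRCS. Kept windows alternated between 11 low runs and 10 methylated ones. The longest low run spanned 22.2 kb around the Hoxc13 start with 23 windows, at 2.13% in swim-up sperm against 2.12% in HRCS. The next spanned 14 kb around Hoxc8 with 24 windows, at 2.11% in each fraction. The third, 13.8 kb with 24 windows, held the Hoxc11 and Hoxc10 starts, at 1.25% in swim-up sperm against 1.59% in HRCS. These are runs of kept windows, and the DNA between them held no window with 3 kept sites. In the first run that includes the 5 kb bin before Hoxc13 given above, at 52.7% over its 186 calls, so the 22.2 kb are not 1 low stretch.

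The 5 most methylated windows lay in Hotair, in the Hoxc8 to Hoxc6 gap, in Hoxc10 and upstream of Hoxc4. The Hotair window at 102777801 was at 94.5% and 95.7% in swim-up sperm against 96.9% and 88.0% in HRCS. The window at 102833401, 6.5 kb before the Hoxc6 start, was at 92.5% and 92.6% in swim-up sperm against 94.6% and 93.3% in HRCS, and its neighbour at 102833601 at 89.5% and 85.8% in swim-up sperm against 95.5% and 96.3% in HRCS. The window at 102801201 in the Hoxc10 homeobox exon was at 94.8% and 91.8% in swim-up sperm against 92.4% and 93.7% in HRCS. The window at 102863001, 1.7 kb before the Hoxc4 start, was at 88.6% and 92.1% in swim-up sperm against 95.8% and 89.0% in HRCS. All 4 libraries were high in each of these windows, which were picked by the mean of the same 4 libraries. The fractions did not overlap at the window at 102833401 and its neighbour, beside 32.7% of all windows that did not.

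Windows with few CG sites made up the methylated part. Of the 84 windows with 10 or more listed CG sites, 83 were at or below 25%. The exception, at 102863201 upstream of Hoxc4, listed 15 CG sites of which 3 were kept, and was at 87.8% in swim-up sperm against 87.0% in HRCS. Among windows with 3 to 5 listed CG sites 28 of 42 were at or below 25% (66.7%), against 28.6% of all such windows, and with 6 to 9 sites 52 of 63 (82.5%), against 59.1%. With 10 to 14 sites it was 58 of 58, against 86.9%, with 15 to 19 it was 16 of 17 (94.1%), below the 97.4% of all such windows, and with 20 or more 9 of 9, against 99.7%. Methylated sites were read less deeply than the rest: the 155 sites above 25% had median depths of 18 to 22 reads in the 4 libraries and the 1619 others 23 to 30. What depth contributed to the shares was not tested.

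**Figure D3:**
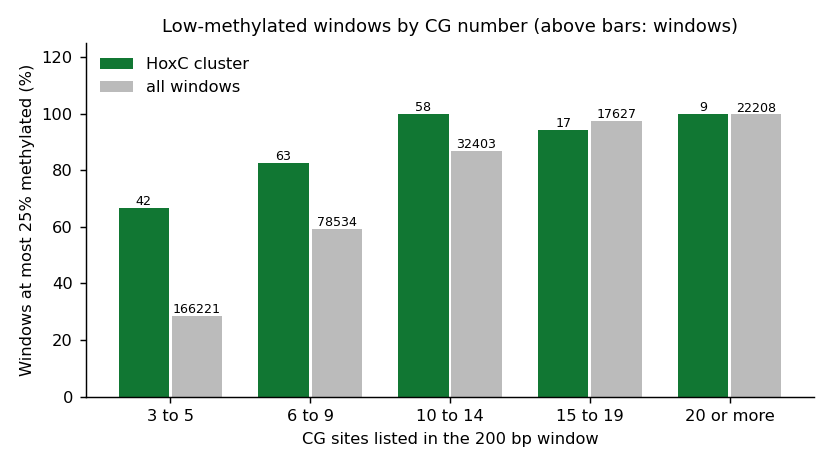
Share of windows at most 25% methylated, in percent of windows in the mean of the 4 libraries, by the number of CG sites listed in the window, for the HoxC cluster and for all windows, with the number of windows above each bar. In the windows with 3 to 5 and with 6 to 9 sites the bar of the cluster is the taller (66.7% against 28.6%, 82.5% against 59.1%), and with 15 or more sites both bars exceed 90%.

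No window or site of the cluster was called different between swim-up sperm and HRCS. edgeR's quasi-likelihood test called 0 of 189 windows, beside 0.00442% of all windows, and 0 of 1774 sites, beside 0.000190% of all sites. At an unadjusted p below 0.05 there were 6 windows (3.17%), against 4.59% of all windows, and 4 sites (0.225%), against 0.348% of all sites. So small a share of all sites below 0.05 marks the site test as strict, and its lack of calls decides little. limma called 0 windows of the cluster and 0.00% of all windows. Fisher's exact test on calls pooled by fraction called 0 windows and 0 sites of the cluster, beside 0.756% of all windows and 0.0101% of all sites. Like the limits from counts, it treats calls as independent, and it ignores the spread between libraries. The fractions did not overlap at 57 windows (30.2%), beside 32.7% of all windows, and at 218 sites (12.3%), beside 15.8% of all sites. Single libraries of different fractions differed by medians of 0.841 to 1.11 points over the 189 windows. The libraries of a fraction differed from each other by a median of 1.04 points in swim-up sperm and 1.09 points in HRCS.

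The largest differences with separated fractions lay between genes, in windows of middle level. The window at 102764201, 3.0 kb before the Hoxc12 start, was at 13.9% and 19.3% in swim-up sperm against 34.8% and 45.7% in HRCS, a difference of 23.7 points over 3 sites and 21 to 38 calls a library (edgeR adjusted p = 1). The window at 102851601 between Hoxc5 and Hoxc4 was at 41.4% and 31.3% in swim-up sperm against 24.4% and 16.7% in HRCS. The difference was -15.8 points, or -8.83 at a minimum of 10 reads (edgeR adjusted p = 1). The window at 102852001, 400 bp farther on, went the other way, from 39.9% and 41.7% in swim-up sperm to 54.0% and 56.8% in HRCS, 14.6 points higher (edgeR adjusted p = 1). None of these differences passed the test.

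The 3 sites with the largest separated differences lie in the same 3 windows, so they share their reads. The site at 102852091 was methylated in 1 of 8 reads (12.5%, Wilson 95% interval 2.24% to 47.1%) and 2 of 17 (11.8%, 3.29% to 34.3%) in swim-up sperm. In HRCS it was methylated in 8 of 15 (53.3%, 30.1% to 75.2%) and 10 of 16 (62.5%, 38.6% to 81.5%) (edgeR adjusted p = 1). The site at 102851756 was at 63.2% and 52.4% in swim-up sperm against 37.5% and 14.3% in HRCS, with 8 and 7 reads in the HRCS libraries (edgeR adjusted p = 1). The site at 102764311 was at 25% and 21.4% in swim-up sperm against 50% and 58.3% in HRCS (edgeR adjusted p = 1). At 102852091 the intervals of the second libraries of the fractions did not overlap, while those of the other 3 pairs across fractions did. At the other two sites every interval of one fraction overlapped every interval of the other.

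**Figure D4:**
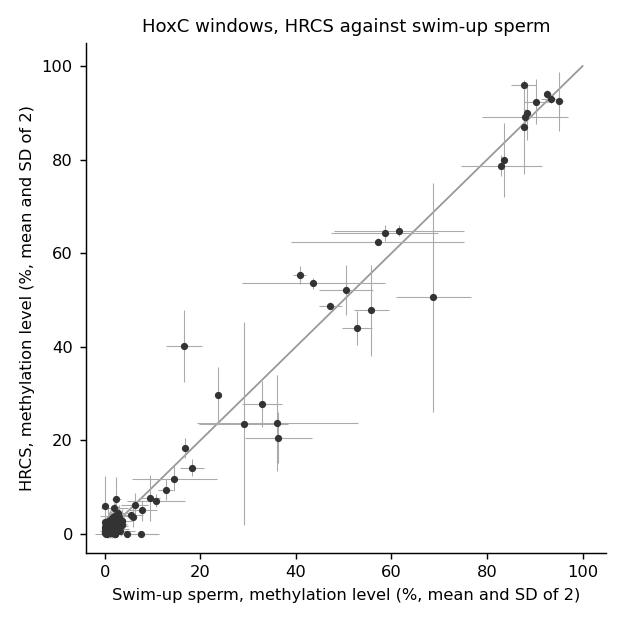
Methylation level in percent of the 189 HoxC windows in HRCS against swim-up sperm, with points at the means of 2 libraries, bars of 1 SD and the line of equal levels. Most windows crowd near 0, those above 75% lie close to the line, and the windows farthest from it are at middle levels, among them the window 3.0 kb before Hoxc12 at 16.6% in swim-up sperm against 40.3% in HRCS.

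Most promoters of the other Hox genes had similar levels, but Hoxb2 stood higher. It averaged 13.8% over the 4 libraries and 8 sites, and it was at 12.4% or higher in every library, above every Hoxc promoter. Hoxb1 averaged 5.69%. The mean over the measured promoters was 1.23% for HoxA, 3.30% for HoxB and 1.08% for HoxD, beside 1.92% for HoxC. At or below 25% were 10 of 10 measured HoxA promoters, 8 of 8 of HoxB, 7 of 7 of HoxD and 6 of 6 of the cofactor genes (Pbx, Meis and Pknox, whose proteins bind DNA together with Hox proteins), as were 8 of 8 of HoxC and 13926 of 14398 of all promoters. Their medians were 1.16% for HoxA, 1.51% for HoxB, 1.15% for HoxD, 1.10% for the cofactors and 1.33% for HoxC, beside 1.11% for all promoters. None of them was called between the fractions. By distance over the 4 library levels, the 2 of 25 other Hox promoters nearest to the HoxC mean were Hoxa7 and Hoxa13, at 0.433 and 0.655 points. That mean, 1.92%, includes Hoxc8 at 5.96% with its thinly read sites and lies above the HoxC median. The ranking without Hoxc8 was not made.

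Reads over the cluster were fewer in HRCS than in swim-up sperm, relative to the size of each library. The 2748 listed sites took 734 and 796 CPM (calls scaled to one fixed total of calls per library) in swim-up sperm against 583 and 591 CPM in HRCS. The mean was 765 ± 44.2 (SD, n = 2) in swim-up sperm against 587 ± 6.25 (SD, n = 2) in HRCS, 0.767 times as many, and the libraries of the fractions did not overlap (exact permutation test, two-sided, p = 0.33, the smallest possible). In the downstream flank they took 108.5 and 105.2 CPM in swim-up sperm against 109.996 and 105.3 CPM in HRCS, a ratio of 1.01. The upstream flank took few calls, 3.21 and 2.58 CPM in swim-up sperm against 2.59 and 2.25 CPM in HRCS, a ratio of 0.837 with overlapping fractions. Both HRCS libraries were below both swim-up libraries at 113 of the 189 windows (59.8%), beside 22.5% of all windows. They were above at 10 windows (5.29%), beside 23.9%. Along the cluster the deficit was uneven. In calls not scaled by library, the first 5 kb bin held 2284 in swim-up sperm against 2595 in HRCS and the last 2058 against 2191. The bin at 102785001, in Hoxc11, held 8116 against 6264. The HRCS libraries were the larger, with 89403347 and 78381101 calls in all, against 78562921 and 71379227 in swim-up sperm. Unscaled counts therefore favour HRCS, and scaled ratios of these bins were not computed. The median ratio of HRCS to swim-up sperm was 0.770 over the windows of the cluster and 1.01 over all windows. It was 0.772 in the cluster's windows at or below 25% methylation and 0.767 in those above. By CG number the cluster's medians ran from 0.750 in windows with 3 to 5 listed sites to 0.830 with 20 or more, and those of all windows from 0.991 to 1.07.

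For promoters of the Hox clusters the median ratio of CPM in HRCS to swim-up sperm was 0.673 for 10 HoxA promoters, 0.870 for 8 HoxB, 0.749 for 7 HoxD and 0.730 for 8 HoxC promoters. For the 6 cofactor promoters it was 1.00 and for all 14398 promoters 1.05. The ratios ran from 0.570 to 0.989 in HoxC, from 0.504 to 0.973 in HoxA, from 0.549 to 1.62 in HoxB and from 0.612 to 1.11 in HoxD. Both HRCS libraries were lower at 4 of 8 HoxC promoters, 8 of 10 of HoxA, 4 of 8 of HoxB and 4 of 7 of HoxD, beside 19.4% of all promoters. This comparison of depth was chosen after the values had been seen. What sets the number of calls was not tested.

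**Figure D5:**
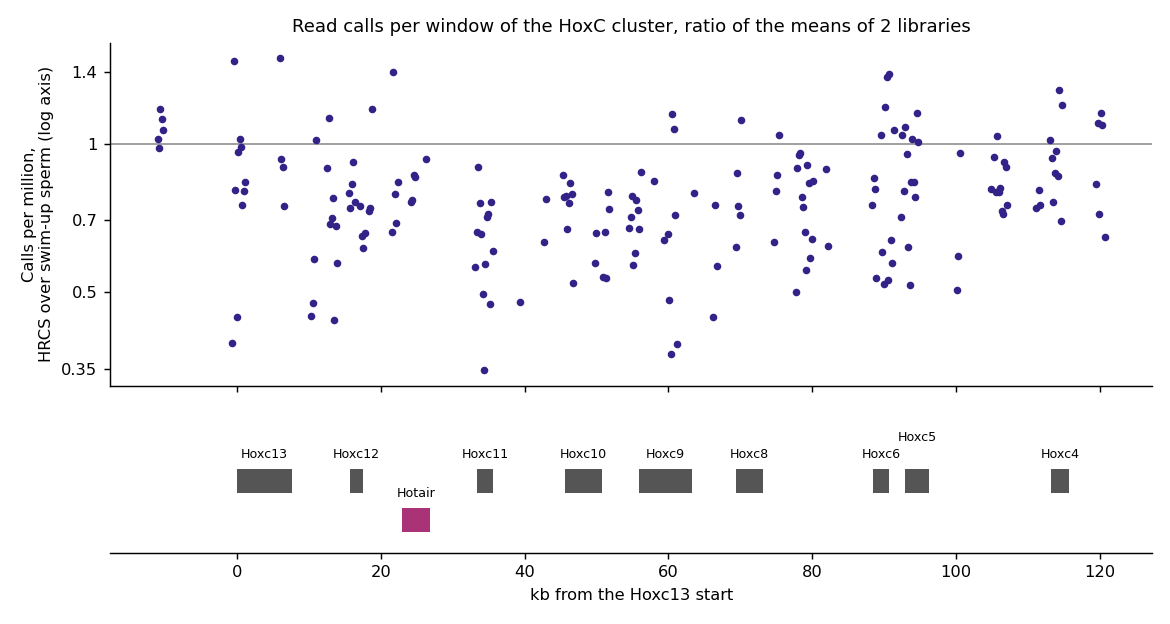
Ratio of CPM in HRCS to swim-up sperm (log axis, means of 2 libraries) for each of the 189 windows, against kb from the Hoxc13 start, with the genes below and a line at a ratio of 1. Most points from Hoxc12 to Hoxc8 lie below the line, and the median over the cluster is 0.770.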

How the data were processed

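Per the labels and the study's methods, sperm DNA was captured with the SureSelectXT Mouse Methyl-Seq kit, made into libraries by post-bisulfite adaptor tagging, sequenced as single reads and mapped to mm9 with Bmap. The authors deposited 1 table per library holding, per CG site and strand, a count of all reads and a lower or equal count taken as methylated (the columns are unnamed), neither normalized. Strands were merged. The libraries held 71379227 to 89403347 calls, 88.7% to 89.6% of them on the minus strand.

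A level is the plain mean of site levels, over sites with 5 or more reads in every library. Methylated and unmethylated calls were compared with edgeR 4.0.16 in R 4.3.3 (a term per library, for methylated calls and for methylated calls in HRCS, 1 dispersion), with Benjamini-Hochberg adjustment over all features and a threshold of 0.05. limma 3.58.1 served as an alternative, and Python 3.11.15 with scipy 1.17.1 gave exact tests. Of 25983 promoters 16699 had 6 or more CG sites, and 16554 of these were placed on mm9 by their CG spacing. Members and lists were chosen with earlier results of these data known. Named were all 9 genes, the 5 highest windows, the 3 longest low runs, the 3 largest separated differences of windows and of sites, and the 3 other Hox promoters nearest to the HoxC mean, of which 1 is not reported here. The Hoxc6 promoter, the depth comparison, the Hoxc8 sites and the coding exons were added after the data were seen. The correlation of replicate differences between fractions was -0.0018 over all windows and -0.069 over the cluster.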

Additional observations from a re-analysis of the deposited data

How the results depend on the processing

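At minimums of 10 and 20 reads, under the replicate block, with Fisher's exact test on pooled calls and, for windows and promoters, with limma, no window, site or promoter of the cluster was called. Nor was one called with windows of 100 or 500 bp, 1 or 5 sites, or promoters of 500 bp on each side. These settings called 0.00167% to 0.00348% of all windows and 0.0133% of all promoters. At 10 and 20 reads, 0.00346% and 0.00172% of all windows, 0.000258% and 0.000316% of all sites and 0.00759% and 0.00% of all promoters were called. With shares so small over all features, a lack of calls in the cluster decides little. Fits without a library leave 1 library in a fraction, with spread from the other fraction alone, so their calls are not given. The cluster was below its flanks throughout, with differences of -10.63 points at 20 reads to -23.48 points without the second HRCS library. The cluster difference of 0.0030 points was 0.0030 with the replicate block, -0.154 to 0.1599 without each library in turn, -0.138 from pooled calls and -0.531 with all sites pooled (added after seeing the data). The 8 promoters' difference of 0.19 points (0.19 with the block) ran from -0.147 to 0.528 without each library. The downstream flank, at -0.204 points, ran from -0.461 to 0.0534 without each library and was 0.0248 with flanks of 200 kb, -2.24 from pooled calls and -2.97 with all sites pooled. The upstream flank, at -4.65 points on 2 sites, was 0.694 with all sites pooled, and no site was left at 20 reads. With 2 libraries a fraction none of these differences could pass a threshold of 0.05. The share of windows at or below 25% was 89.0% at 10 reads, 92.7% at 20 reads, 91.0% in windows of 100 bp, 80.6% in windows of 500 bp, 80.1% with 1 site and 92.8% with 5. The ratio of CPM was 0.737 to 0.800 without each library, 0.768 with the replicate block and 0.761 against the downstream flank. The replicate numbers do not mark shared animals in the labels, and the block changed no call in the cluster. The window 3.0 kb before Hoxc12 had too few sites left at 10 reads, 20 reads or 5 sites, that at 102852001 at 10 and 20 reads, and that at 102851601 at 20 reads. Over all windows 14 were called, against 0 with limma, 9 with the replicate block and 2397 with Fisher's test. Over all sites 5 were called, against 3 with the block and 267 with Fisher's test, and over all promoters 1, against 34 with Fisher's test. A site with 5 reads moves by 20 points with 1 read, so differences at single sites were not detectable unless large.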
